A study of Caenorhabditis elegans with 2 samples.

Results

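The genes described here are 10 heterochronic timing genes of Caenorhabditis elegans, of 19973 protein-coding genes in the annotation: lin-14, lin-28, lin-46, lin-66, mab-10, nhl-2, din-1, ain-1, lin-29 and lin-42. They were chosen by name from a known pathway, and chosen on their peaks, since 8 of them were already known to have a peak near the gene start in these data. The peak counts and signals of these genes are therefore given as a description, and no test was run on them. Sites bound by T26A8.4, a protein that RefSeq annotates as containing a C3H1-type domain, were mapped by chromatin immunoprecipitation and sequencing (ChIP-seq). The series has 1 group of 2 libraries, labelled biological replicates 1 and 2. Both came from whole L4 larvae aged 48 hours that had been starved at L1 after bleaching, which synchronises the animals. Both were of strain OP692, in which the transgene wgIs692 carries T26A8.4 joined to TY1, EGFP and 3xFLAG tags together with unc-119(+), in an unc-119(tm4063) mutant background. The precipitation used an antibody against GFP, so the tagged transgene product was recovered. The sources used here do not give the promoter or the tissues in which the fusion is made. With no untreated or wild-type group, no comparison between conditions was possible. In whole animals, strong occupancy in few cells and weak occupancy in many cells cannot be told apart.

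Heterochronic genes set the order of cell fates from the first larval stage to the adult. Early factors such as LIN-14 and LIN-28 hold cells in early larval programmes, and microRNAs of the lin-4 and let-7 families switch these factors off in turn. The cascade ends in LIN-29, a zinc finger transcription factor that drives the change of the lateral hypodermal seam cells from larval to adult fate. Nuclear receptor signalling through DAF-12 ties the sequence to growth conditions, and cofactors of the microRNA machinery adjust how strongly the microRNAs act.

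T26A8.4 peaks lay upstream of most of these genes, often well before the annotated start, and inside the long genes of the set. The promoter window of a gene was taken as the 1000 bp before its annotated start and the 200 bp after it. In the combined set of 2993 peaks, a list that the authors made from both replicates and thresholded, 8 of the 10 genes had a peak summit in this window, against 7.06% of all protein-coding genes. These were lin-14, lin-28, lin-46, lin-66, mab-10, nhl-2, din-1 and ain-1. Summits inside the gene body were found in 5 of the 10, against 4.93% of all protein-coding genes, and these were lin-14, lin-28, din-1, lin-29 and lin-42. The genes thus held 20 summits, of which 9 were in promoter windows and 11 in gene bodies. Their peak signal, a score given by the authors whose scale is not stated, had a median of 236 in the promoter windows and 102 in the gene bodies. The median over all combined-set peaks was 123. The authors also deposited a conservative set, another list over both replicates, with 2810 peaks, and it held 18 of the 20 summits. The highest signal was 777 at nhl-2, and the lowest was 89.7 at a summit inside lin-42.

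The DNA under the summits that the results turn on is given here as it stands in RefSeq WBcel235, the assembly that the peak lists call ce11. Each stretch is centred on a summit and reads 5′ to 3′ on the strand of the gene, and it was shortened where it would have entered an untranslated region. Positions are in bp from the annotated gene start, and negative positions are upstream. Capitals mark GAGAGA or AGTGCA on either strand, since these were the searched hexamers found in a higher share of the windows at these genes than of all summit windows and gene-start windows.
lin-14 −45 bp, chrX:11465440-11465559, plus strand: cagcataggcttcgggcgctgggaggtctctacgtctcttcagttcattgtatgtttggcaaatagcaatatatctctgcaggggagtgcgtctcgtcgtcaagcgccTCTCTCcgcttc
lin-46 −820 bp, chrV:12967983-12968110, plus strand: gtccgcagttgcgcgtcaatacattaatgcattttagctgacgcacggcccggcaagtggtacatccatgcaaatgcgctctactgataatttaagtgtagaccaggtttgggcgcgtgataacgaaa
lin-66 −381 bp, chrIV:13887623-13887773, plus strand: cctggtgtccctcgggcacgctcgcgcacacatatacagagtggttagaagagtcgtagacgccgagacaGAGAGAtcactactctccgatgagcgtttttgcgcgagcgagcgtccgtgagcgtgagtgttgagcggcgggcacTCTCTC
mab-10 −303 bp, chrII:10527706-10527856, plus strand: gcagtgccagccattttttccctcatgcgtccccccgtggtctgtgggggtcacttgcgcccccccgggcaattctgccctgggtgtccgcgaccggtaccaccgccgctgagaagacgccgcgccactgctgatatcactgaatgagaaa
lin-42 +5326 bp, chrII:1246958-1247108, minus strand: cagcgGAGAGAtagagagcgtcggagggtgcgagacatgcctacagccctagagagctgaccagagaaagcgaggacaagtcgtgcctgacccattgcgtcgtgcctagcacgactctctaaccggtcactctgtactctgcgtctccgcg
din-1 −686 bp, chrII:11634220-11634370, minus strand: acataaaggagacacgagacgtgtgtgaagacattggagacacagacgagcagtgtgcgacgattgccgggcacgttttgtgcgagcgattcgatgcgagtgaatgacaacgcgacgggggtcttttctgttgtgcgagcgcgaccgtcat
din-1 +13520 bp, chrII:11620079-11620164, minus strand: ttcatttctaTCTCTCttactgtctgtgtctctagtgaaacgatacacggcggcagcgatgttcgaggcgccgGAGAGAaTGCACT
nhl-2 −841 bp, chrIII:4899851-4900001, minus strand: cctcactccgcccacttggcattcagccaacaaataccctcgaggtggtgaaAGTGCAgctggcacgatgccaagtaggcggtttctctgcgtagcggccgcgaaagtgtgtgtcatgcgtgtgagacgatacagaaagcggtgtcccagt
ain-1 −949 bp, chrX:16612427-16612577, plus strand: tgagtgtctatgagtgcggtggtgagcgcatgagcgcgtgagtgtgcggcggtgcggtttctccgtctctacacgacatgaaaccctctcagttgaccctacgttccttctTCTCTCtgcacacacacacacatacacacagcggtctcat

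The sequences at lin-66, din-1 +13520 and lin-42 +5326 hold GAGAGA, and lin-14 and ain-1 hold its reverse complement TCTCTC. The stretch at nhl-2 holds AGTGCA, and din-1 +13520 has its reverse complement TGCACT beside a GAGAGA. The stretches at lin-46, mab-10 and din-1 −686 hold neither hexamer. A letter match is a description of the DNA and not evidence that a factor sits there.

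**Figure D1:**
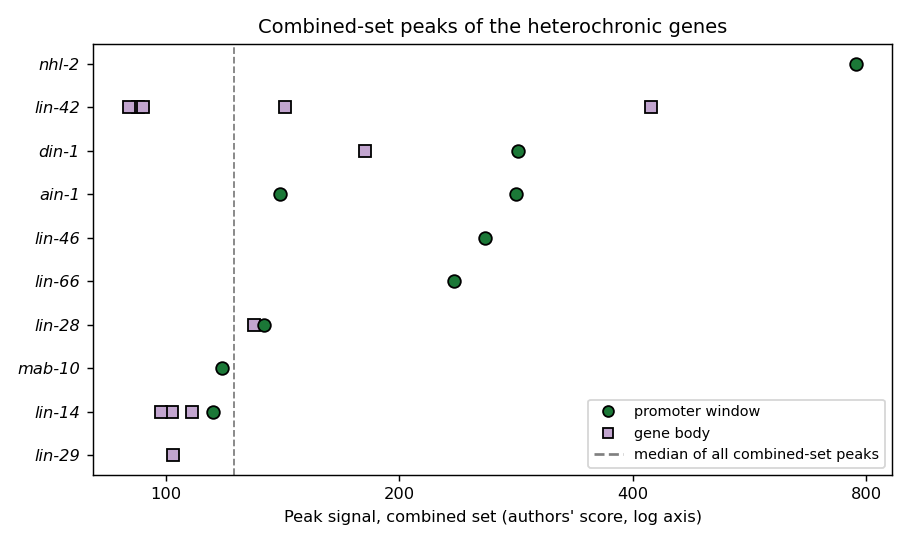
Peak signal in the combined set (x axis, the authors' score, log axis) of every summit assigned to each of the 10 genes (y axis). Circles are promoter-window summits, squares are gene-body summits and the dashed line is the median of all combined-set peaks, 123; nhl-2 is highest at 777, and lin-42 is next at 423 with a gene-body summit.

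Among lin-14, lin-28, lin-46 and lin-66, lin-14 had a weak summit almost at its start and lin-46 a strong one far upstream. lin-14, a transcription factor gene on chromosome X that specifies early larval fates, had its promoter summit at −45 bp. This summit had a combined signal of 115, rank 1657 of 2993, and a score of 993, where the score is an integer given by the authors that is at least 830 in the thresholded lists and at most 1000. In the replicates the signal was 53.8 in replicate 1 and 55.0 in replicate 2, where it ranked 2273 of 70405 and 2142 of 66732 ranked peaks. Neither value passed that replicate's own threshold, and its score was 64 in replicate 1 and 812 in replicate 2, both under 830. The promoter peak of lin-14 was thus in the combined set and in the thresholded list of neither library. The summit also lay at −210 bp from the start of the noncoding RNA gene T25C12.8, on the other strand. The 3 intronic summits of lin-14, at +6577, +7881 and +12337 bp, had signals of 102, 108 and 98.7, all below the median of the combined set. The summit at +6577 bp passed the threshold in replicate 2, with a signal of 66.8, and not in replicate 1, with 46.8. The summits at +7881 and +12337 bp passed in neither replicate. The conservative set held these 3 and a further 2 in introns, at +1947 and +17280 bp, with signals of 97.6 and 63.9.

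lin-28, on chromosome I, encodes an RNA-binding protein that blocks the maturation of let-7 microRNA. It had a promoter summit at −558 bp with a combined signal of 134, rank 1286, and an intronic summit at +867 bp with a signal of 130. Both were thresholded peaks in replicate 1, with signals of 82.0 and 76.8, and neither was in replicate 2, with signals of 46.2 and 51.1. The intronic summit lay at −17 bp from the start of the shorter lin-28 transcript, F02E9.2b.1. Each of the 2 annotated lin-28 starts therefore had a summit within the promoter window, and the signals of the summits were close.

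lin-46 encodes a gephyrin-like protein that acts downstream of lin-28, and lin-66 encodes a protein that lowers the level of lin-28 product. The lin-46 summit, on chromosome V at −820 bp, had a combined signal of 258, rank 386. It had a signal of 155 in replicate 2, rank 276 of 66732, and replicate 1 listed no peak in the lin-46 promoter window, even among its 70405 ranked peaks. The lin-46 peak was thus listed by replicate 2 and not by replicate 1, and it was also in the conservative set. What the reads of replicate 1 added to its combined signal cannot be seen in the lists. This summit was also in the windows of R186.8, at −53 bp, and of R186.3, at −825 bp, both transcribed from the opposite strand, and R186.8 was the nearest start. At lin-66 on chromosome IV the replicates were close in rank. Its summit at −381 bp had a combined signal of 236, rank 471, with 140 in replicate 1 at rank 345 and 119 in replicate 2 at rank 502. The lin-66 peak was thresholded in both libraries, and no other annotated gene had it in its promoter window or body.

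**Figure D2:**
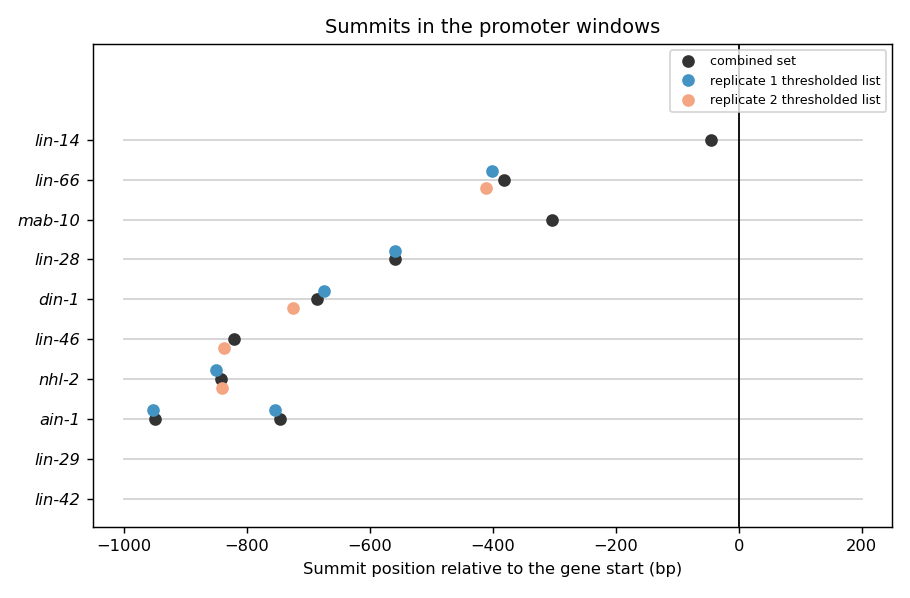
Position of each thresholded summit relative to the gene start (x axis, bp) in the promoter window of each gene (y axis), in the combined set (dark), replicate 1 (blue) and replicate 2 (orange). Only lin-66, nhl-2 and din-1 have a dot of all 3 colours, the rows of lin-29 and lin-42 are empty, and most summits lie further than 500 bp from the start.

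The late-acting genes mab-10 and lin-29 differed in where their peaks lay. mab-10 on chromosome II, whose product is a cofactor of LIN-29 related to NAB proteins, had a promoter summit at −303 bp with a combined signal of 118, rank 1590. Its signal was 69.9 in replicate 1 and 59.0 in replicate 2, and neither passed, with scores of 374 and 802. Replicate 2 alone called an intronic mab-10 peak at +1577 bp, with a signal of 49.6, which was not in the combined set. lin-29, also on chromosome II, had no thresholded promoter summit in any list. The strongest ranked peak in its promoter window had a signal of 24.0 at −402 bp in the combined ranked list, with a score of 165, and this is below the median of that list, 27.1. Its single combined-set summit lay at +17554 bp in the 3′ untranslated region, with a signal of 102, rank 2012, and 42.9 and 62.7 in replicates 1 and 2. Neither replicate had it above threshold, and replicate 2 instead called intronic lin-29 peaks at +16733 and +16503 bp, with signals of 34.4 and 22.3. T26A8.4 peaks at lin-29 were therefore weak, and placed at its end rather than its start.

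lin-42, the worm homologue of the circadian gene Period, whose level cycles with the larval moults, carried its peaks inside the gene. It had 5 gene-body summits and no promoter summit. Of all protein-coding genes, 23 had 5 or more gene-body summits and 8 had more than lin-42, with a maximum of 14. The strongest lay in an intron at +5326 bp and had a combined signal of 423, rank 149. It was 192 in replicate 1, rank 178, and 203 in replicate 2, rank 164, and the summits of the replicates were 12 bp apart. The strongest lin-42 summit was thus called alike by both libraries. It lies within a pair of noncoding RNA genes on opposite strands, F47F6.13 and F47F6.15, at +65 and +120 bp from their starts, and at −2998 bp from the nearest lin-42 transcript start. The summit at +9723 bp, also intronic, had a signal of 142 and passed in both replicates, with 72.7 and 78.3. The summits at +8755, +11658 and +12469 bp were in coding exons, with signals of 93.6, 89.7 and 92.0. The +8755 bp summit passed in replicate 1 alone, with 64.3 against 38.4 in replicate 2. The other two passed in replicate 2 alone, with 70.1 and 60.3 against 17.1 and 24.8 in replicate 1, and were not in the conservative set. Those 2 summits lie at −600 and +211 bp from the start of the short transcript F47F6.1e.1.

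The summit of lin-42 at +12469 bp had the lowest score of the 20 summits, 852, just inside the limit of 830. The peaks just outside it were lin-14 introns at +1947, +11306 and +17280 bp, with scores of 829, 824 and 811 and signals of 97.6, 93.0 and 63.9 in the combined ranked list. Well below the limit was a lin-42 peak that each replicate called separately, at +14341 bp in replicate 1 with a signal of 75.1 and at +14432 bp in replicate 2 with 77.1. In the combined ranked list that peak had a signal of 143 and rank 1183, but a score of 469. Its −log10 irreproducible discovery rate (IDR) was 1.13, where the IDR is low for peaks that rank both high and alike in different inputs. Replicate 2 called a further, weaker peak at +14216 bp, with a signal of 30.2, that fell on the same combined ranked peak. The combined ranked peak was thus in neither joint set although both libraries had a call there. In the lin-42 promoter window, the strongest ranked peak was at −805 bp with a signal of 48.4 and a score of 329.

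**Figure D3:**
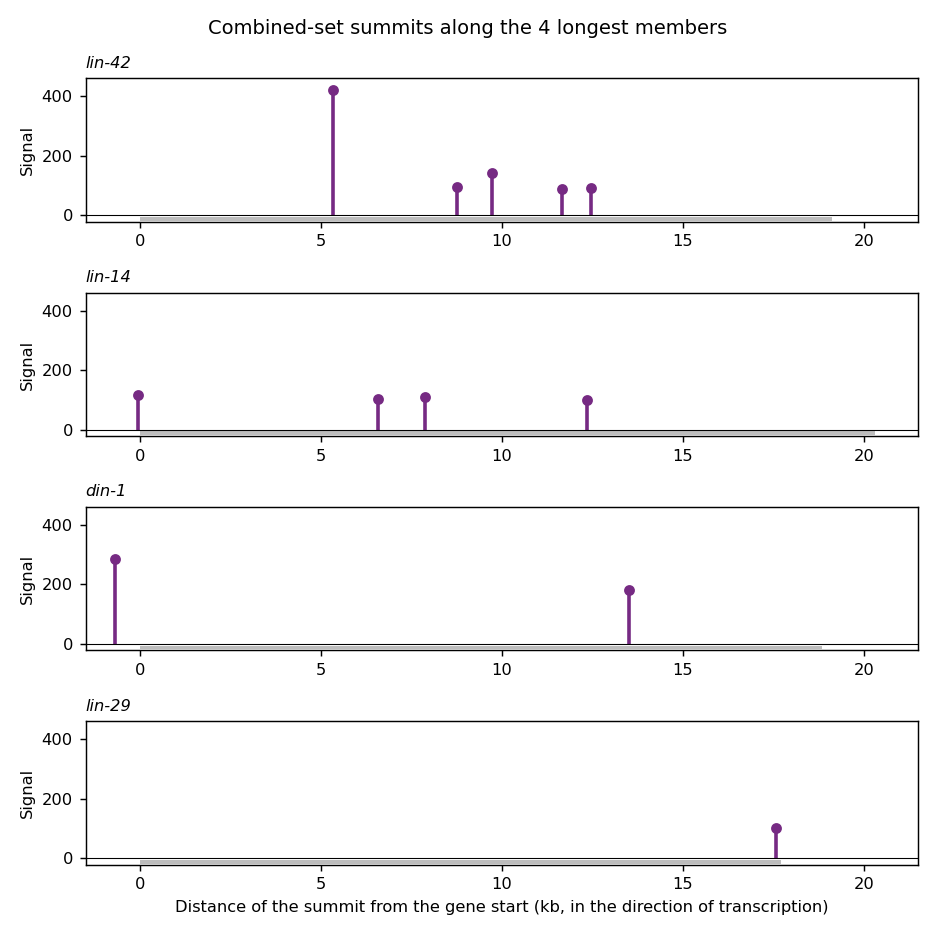
Combined-set summits along the 4 longest genes of the set (x axis, distance from the gene start in kb; grey bar, the gene), with the height of each stem giving the peak signal (y axis, the authors' score). The 423 summit of lin-42 and the 285 and 181 summits of din-1 stand above the others, and lin-29 has only a summit near its end.

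din-1, on chromosome II, encodes a corepressor that acts with the nuclear receptor DAF-12. Its promoter summit at −686 bp had a combined signal of 285, rank 313, with 122 in replicate 1 at rank 455 and 152 in replicate 2 at rank 290, and was thresholded in both. Its intronic summit at +13520 bp had a signal of 181, with 91.9 in replicate 1, where it passed, and 66.9 in replicate 2, where its score of 149 did not. The intronic summit lay at −11 bp from the start of the short din-1 transcript F07A11.6d.1. Each din-1 summit thus lay upstream of an annotated start of the gene. Both also lay within noncoding RNA genes, ZK20.8 at +39 bp and F07A11.10 at +160 bp, and the intronic summit was in addition within the small nucleolar RNA gene F07A11.15 at +64 bp. The promoter summit was also in the window of the small nucleolar RNA gene ZK20.9, at −930 bp. The conservative set listed 3 further din-1 summits, at −892, +13319 and +16001 bp, with signals of 6.47, 71.8 and 71.4. Replicate 1 alone called a further intronic peak at +3428 bp with a signal of 56.1.

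The cofactors of the microRNA machinery gave the strongest promoter signal and, in the combined set, the only gene of the 10 with more than 1 promoter summit. nhl-2, on chromosome III, encodes a TRIM-NHL protein that works with the microRNA-induced silencing complex. Its summit at −841 bp had a combined signal of 777, rank 46 of 2993. The signal was 433 in replicate 1, rank 39 of 70405, and 337 in replicate 2, rank 67 of 66732, and the summits were 9 bp apart. The nhl-2 peak was thus near the top of every list. It was nearer to tag-340, which is transcribed away on the other strand and had the summit at −582 bp, and it lay within the noncoding RNA gene F26F4.14 at +24 bp. Which of these genes the peak serves cannot be told from its position. ain-1, on chromosome X, encodes a GW182-family partner of the microRNA Argonaute proteins. It had summits at −949 and −745 bp with combined signals of 283 and 140, ranks 316 and 1197. The −949 bp summit had 141 in replicate 1 and 131 in replicate 2, passed in both, and in replicate 2 was placed at −1004 bp, just outside the window. The −745 bp summit had 63.8 and 66.7 and passed in replicate 1 alone. No other annotated gene had an ain-1 summit in its promoter window or body.

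Each replicate alone gave fewer of these genes than the combined set. In the thresholded list of replicate 1, 5 of the 10 had a promoter summit, against 4.84% of all protein-coding genes, and 3 had a gene-body summit, against 3.16%. In replicate 2 the counts were 4, against 5.50%, and 4, against 3.34%. The 5 of replicate 1 were lin-28, lin-66, nhl-2, din-1 and ain-1, and the 4 of replicate 2 were lin-46, lin-66, nhl-2 and din-1. Only lin-66, nhl-2 and din-1 were thus counted in both. The ain-1 summit at −949 bp also passed in both, but replicate 2 placed it at −1004 bp, just outside the window. In the conservative set 8 had a promoter summit, against 6.63%, and 5 a gene-body summit, against 4.58%.

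Of the 20 combined-set summits, 6 matched a thresholded peak of both replicates, 5 of replicate 1 alone, 4 of replicate 2 alone and 5 of neither. The corresponding shares at these genes were 30%, 25%, 20% and 25%, and over all combined-set summits they were 44.9%, 13.5%, 16.8% and 24.7%. The 6 in both had signals from 142 to 777 with a median of 284, and the other 14 ran from 89.7 to 258 with a median of 112. The 5 in neither were the lin-14 summits at −45, +7881 and +12337 bp and those of mab-10 and lin-29. In the ranked lists, which keep weak regions, 19 of the 20 had a match in replicate 1 and 20 in replicate 2. The exception was lin-46. Where both replicates had a match, their summits were 3 to 164 bp apart, with a median of 33 bp.

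**Figure D4:**
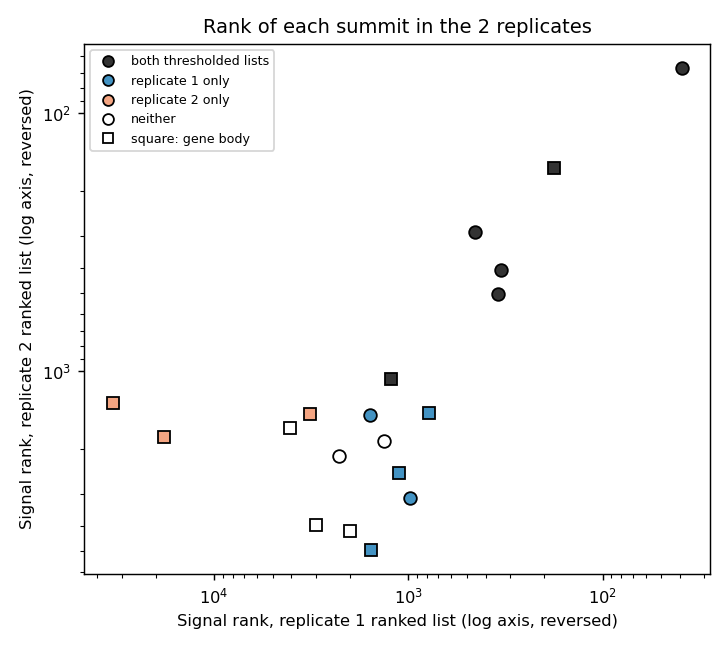
Signal rank of each summit in the ranked lists of replicate 1 (x axis) and replicate 2 (y axis), both log axes reversed so that the strongest peaks are at the upper right. Circles are promoter-window and squares gene-body summits, coloured by the thresholded lists that hold them; the 6 in both lists lie towards the strong corner, a pair of lin-42 summits ranks far lower in replicate 1 than in replicate 2, and lin-46 is left out for want of a peak in replicate 1.

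Most of the summits had the same peak width. In the combined set 64.8% of peaks were exactly 420 bp wide, with a median signal of 107, and the others had a median of 219. At the 10 genes 13 of 20 were 420 bp wide. The 7 others were those of nhl-2 (394 bp), ain-1 at −949 bp (327 bp), lin-42 at +5326 bp (304 bp), lin-66 (190 bp), lin-46 (184 bp) and din-1 (175 bp and 111 bp). These 7 were the strongest of the 20. For the 13 peaks of the commonest width the interval does not mark the extent of binding, and the summit was used.

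Most promoter summits lay well upstream of the annotated start. The median position of the 9 was −686 bp, and 6 were further than 500 bp upstream. With a narrower window from 500 bp upstream to 100 bp downstream, 3 genes kept a promoter summit, lin-14, lin-66 and mab-10, against 5.16% of all protein-coding genes in that window. Where only the nearest protein-coding start of each summit was counted, nhl-2 and lin-46 were lost. When the starts of all transcripts were used in place of the gene start, lin-42 was gained. Annotated starts in this species are often sites of trans-splicing, where a spliced leader replaces the original end of the transcript. Such starts can lie some way inside the transcribed region. Whether this holds for the genes described here, or bears on their summit positions, was not tested.

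The genes with gene-body summits included the longest. lin-14, lin-42, din-1 and lin-29 are 20312, 19124, 18840 and 17702 bp long, and all 4 had a gene-body summit, while lin-28, at 3175 bp, was the only shorter one. Of the 998 protein-coding genes of 10000 bp or more, 170 had a gene-body summit in the combined set, which is 17.0%. Ranked peaks, most of them weak, were denser in all 4 long genes than the median of 0.854 per kb over genes of that length. No such median was computed over shorter genes. The combined ranked list had 1.92 peaks per kb in lin-14, 1.80 in din-1, 1.64 in lin-29 and 1.62 in lin-42. The shorter genes were at 2.22 in mab-10, 2.03 in nhl-2, 1.86 in lin-66, 1.75 in ain-1 and 1.57 in lin-28, and lin-46 had 0, so the density did not set the long genes apart. lin-29 thus had ranked peaks along its length at a density like that of lin-42, but only 1 of its peaks was in the combined set.

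The DNA at the summits had a higher GC content than the DNA around it. In windows of 100 bp on each side of the summit, GC content at the 20 summits had a median of 50.2%, from 40.3% at lin-29 to 63.2% at lin-42 +5326. The windows from 500 to 700 bp away on both sides had a median of 35.8%. GC content was higher at the summit than in the flanks for 18 of the 20, or 90%, and for 76.1% of all combined-set summits. The median over all combined-set summit windows was 43.8%. The exceptions were lin-29 +17554 bp, with 40.3% against 51.5% in its flanks, and lin-42 +11658 bp, with 47.3% against 57.0%. Whether GC content bears on the peak calls was not tested.

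**Figure D5:**
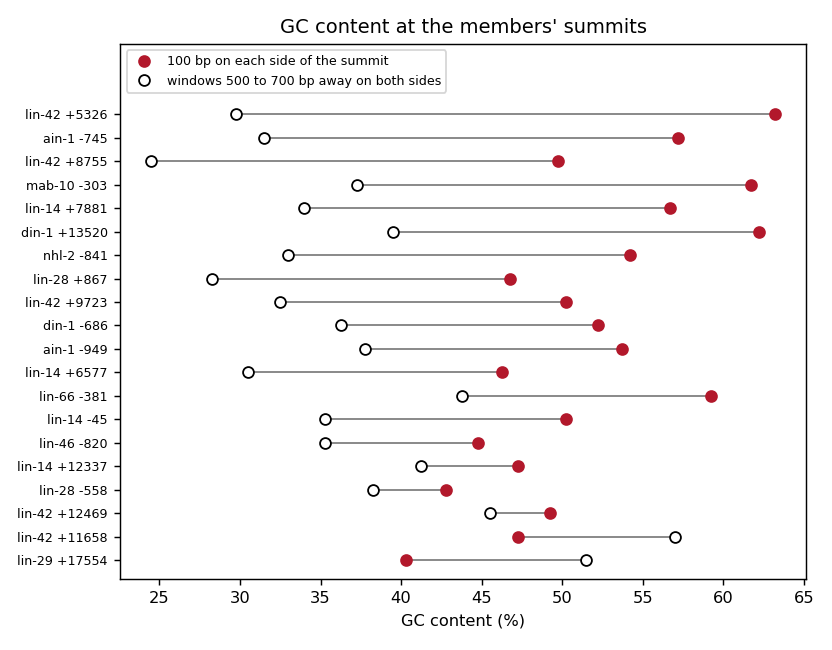
GC content (x axis, percent) of the 100 bp on each side of the 20 summits (filled) and of the windows 500 to 700 bp away on both sides (open), with the gene and the summit position in bp from its start on the y axis, ordered by the difference. The filled point is to the right for 18 summits and to the left for lin-42 +11658 and lin-29 +17554.

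Six-letter motifs were searched on both strands of the same windows. GAGAGA was in 9 of 20 windows, or 45%, against 30.5% of all summit windows and 16.3% of windows of the same length at gene starts. AGTGCA was in 4, or 20%, against 8.75% and 6.31%. TGATAA, the core of GATA-type sites, was in 4, or 20%, against 13.6% and 22.8%. CACGTG, the E-box, was in 1, at lin-42 +8755 bp, or 5%, against 7.68% and 4.23%. TATAAA was in 1, at lin-14 +12337 bp, or 5%, against 12.7% and 30.5%. TTTTTT was in 9, or 45%, against 45.9% and 70.6%. GAGAGA was found at 7 of the 10 genes, lin-14, lin-28, lin-66, mab-10, din-1, ain-1 and lin-42, and lay at both strong and weak summits. Genes with more summits had more windows searched, and no share per gene was computed, so the 7 cannot be set against a background. Summits inside an annotated noncoding RNA gene made up 4 of 20, or 20%, at nhl-2, at both summits of din-1 and at lin-42 +5326 bp, against 13.8% of all combined-set summits.

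Summits were also found at other genes of the pathway, among them 4 of the 5 microRNA genes and some regulators. The share over all microRNA genes was not computed, so the 4 cannot be set against a background. A wider list of 39 pathway genes had 15 genes with a promoter summit and 13 with a gene-body summit, and 24 with either. These counts include the 10 genes that were chosen on their peaks, and the share of all genes with either was not computed. Among the 29 that are not of the 10, 7 had a promoter summit and 8 a gene-body summit, with microRNA genes counted in both. Of the 23 of these that encode proteins, 4 had a promoter summit and 7 a gene-body summit, beside 7.06% and 4.93% of all protein-coding genes. The gene-body share rises with length, to 17.0% of genes of 10000 bp or more. Of the 7, daf-12, sea-2 and dre-1 are of that length. The microRNA genes lin-4, mir-48 and mir-241 had promoter summits with combined signals of 130 at −374 bp, 94.9 at −122 bp and 153 at −430 bp. let-7 had a summit inside its annotated gene at +641 bp with a signal of 120. Of these, the lin-4 and mir-48 summits were thresholded in replicate 1 alone, that of let-7 in replicate 2 alone, and that of mir-241 in neither, so none was called by both libraries. mir-84 had no summit in its window or body, and the nearest was 2215 bp from its start.

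Stronger promoter summits were found at puf-9, the gene of a Pumilio-type RNA-binding protein, with 428 at −287 bp, at myrf-1, the gene of a membrane-bound transcription factor, with 295 at −329 bp, and at lep-2, which encodes a Makorin that lowers LIN-28, with 242 at −828 bp. These 3 were thresholded in both replicates. The promoter summit of drsh-1, which encodes the Drosha nuclease, had a signal of only 63.2 at +74 bp and was thresholded in neither. Gene-body summits were at kin-20, a casein kinase gene, with 243, at daf-12, the nuclear receptor gene whose corepressor is encoded by din-1, with 151 at +1596 bp, and at let-7, sea-2, nhr-85, dre-1, alg-2 and drsh-1. The daf-12 summit was thresholded in both replicates. That of kin-20 was thresholded in replicate 2 alone, with a signal of 132 against 107 in replicate 1. The sea-2 summit, with a combined signal of 89.9, was thresholded in replicate 1 alone. The strongest gene-body summits of nhr-85, dre-1, alg-2 and drsh-1 had combined signals of 84.0, 98.1, 102 and 72.0. These were thresholded in neither replicate. No summit in window or body was found at 15 of the 29, among them mir-84, lin-41 and hbl-1, the main targets of the let-7 family, the blmp-1, nhr-23 and nhr-25 transcription factor genes, the Argonaute gene alg-1, the Dicer gene dcr-1, and ain-2, which acts redundantly with ain-1. The share of all protein-coding genes without a summit in window or body was not computed, so the 15 cannot be set against a background. The peak lists hold no expression values, so none of these positions says whether a gene was active.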

How the data were processed

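The deposited data were peak lists of 2 ChIP-seq libraries on ce11 (WBcel235). Peaks were ranked and thresholded on the IDR, per the labels' file listings. The aligner, the peak caller and the read depths were not given in the sources used here. Each deposited peak has a signal and a score, both the authors' own values of no stated scale, with scores of at least 830 in the thresholded lists and a maximum of 1000. The ranked lists deposited by the authors also give the IDR as −log10. A possible control named in the labels was not used here.

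Summits were placed on Ensembl release 115 genes, and 5 microRNA genes of the wider list were matched by coordinates. Peaks of 2 lists were matched where the overlap covered 50% or more of the shorter, taking the nearest summit. The combined ranked list held all 2993 combined-set peaks. The 16 further per-input columns of the series-level ranked lists, which no label ties to a replicate, were not used. Signals were ranked within a list only. No statistical test was used. Genes and lists were chosen with earlier results of these data known. The text names the 10 genes, pathway-list genes with a summit, all genes sharing a counted summit, and some pathway-list genes without a summit, chosen after their values were seen. The assignment of summits was tested on simulated data. Alternatives were other peak lists, windows, starts and assignment rules. The software was pandas 2.3.3, NumPy 2.4.6 and Matplotlib 3.10.9 under Python 3.11.15.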

Additional observations from a re-analysis of the deposited data

How the results depend on the processing

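The 8 genes with a promoter summit became 5 without replicate 2 and 4 without replicate 1, each count taken from the other library's own thresholded list. They became 3 with a window of 500 bp upstream to 100 bp downstream, which lost ain-1, din-1, lin-28, lin-46 and nhl-2. The count was 6 to 9 under the conservative set, the top 50% of combined peaks by signal, a wider window, all transcript starts, peak intervals and the nearest gene alone. Of these settings, only the conservative set had a share over all protein-coding genes, 6.63%. The share was not computed for the others, so their counts cannot be set against it. The count of 5 genes with a gene-body summit became 3 without replicate 2 and 3 among the 50% of peaks with the highest signal, both of which lost lin-14 and lin-29. The gene-body count was 4 without replicate 1, which lost din-1 and lin-28 and gained mab-10. For the 50% of peaks with the highest signal, no share over all protein-coding genes was computed. The 15 pathway-list genes with a promoter summit became 7 without replicate 1 and 10 without replicate 2, and 9 with the narrower window. The median rank percentile of each gene's strongest summit was 85.7 in the combined set, 99.4 in the ranked list of replicate 1 and 99.3 in that of replicate 2, since the ranked lists hold many weak peaks. Read depth is unknown, so no counting interval could be given. No paired analysis was possible because the series has only 1 group.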
